A study of Homo sapiens with 12 samples.

Results

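The 37 genes described here encode Fanconi anaemia proteins, homologous recombination proteins and the checkpoint kinases that act with them. They were chosen by symbol, as the rows of the count tables whose Ensembl gene identifier maps to a fixed list of names. The rule uses no measured value, but the list was drawn up with earlier results of these data known. All 37 were found among the 60668 genes of the tables, and all 37 were among the 13972 genes that passed a filter on low counts and were tested. RNA was measured in 12 libraries of MOLM-13, an established acute myeloid leukaemia cell line with an MLL fusion gene and a FLT3 receptor that signals without its ligand. The cells had been treated for 8 days with gilteritinib and MI-3454 together (the combination), with gilteritinib, with MI-3454 or with DMSO, 3 libraries per group. Gilteritinib inhibits the FLT3 kinase, MI-3454 blocks the binding of menin to MLL1, and DMSO is the solvent control. Groups follow the sample titles. In replicates 2 and 3 of both groups with MI-3454 the treatment label ends the compound's name in another digit, and the titles were followed there. All groups share this cell line and carry no engineered allele. Cultures were seeded in triplicate and no source says that they were grown on separate days, so p-values measure the spread between these libraries, which may be technical.

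The Fanconi pathway deals with crosslinks that join the strands of DNA and block replication. A core complex adds ubiquitin to the FANCD2-FANCI clamp at a stalled fork, nucleases then open the crosslink, and the break that results is mended by homologous recombination. In homologous recombination the break ends are resected to single strands, RPA coats them, BRCA1, PALB2 and BRCA2 then act on them, and the missing sequence is copied from the sister chromatid. ATM and ATR signal the damage to the effector kinases CHEK2 and CHEK1, which hold the cell cycle. Many of these genes are transcribed mainly in cells that replicate their DNA, and in acute myeloid leukaemia the pathway is studied because defects in it change how cells respond to crosslinking drugs and PARP inhibitors.

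Gene counts per library lay between 6.47 M and 12.1 M, and the 37 genes together had between 11261 and 21568 counts per library. All 8 markers of myeloid cells and MOLM-13 that were examined had counts, and their summed level, in counts per 1e6 counts (CPM), was 15376 to 16711 with the combination, 3021 to 3065 with gilteritinib, 9493 to 10659 with MI-3454 and 2466 to 2632 with DMSO. Summed T cell markers reached at most 3.15 CPM in any library and B cell markers at most 1.71 CPM, while CD3G and the erythroid markers were at or near 0. With the combination most of the myeloid sum was LYZ, the lysozyme gene, at 13482 ± 621 CPM. With DMSO it was at 414 ± 37.4 CPM, and most of the sum came from the other markers. MEIS1, a target of menin and MLL1, fell by 3.71 ± 0.17 (log2 ± SE) with the combination and 2.62 ± 0.14 with MI-3454, and PIM1, a gene downstream of FLT3, fell by 3.79 ± 0.13 with the combination and 4.20 ± 0.13 with gilteritinib, all against DMSO. An epithelial and stromal list summed to 178 to 499 CPM, nearly all of it PECAM1, which averaged 485 ± 7 CPM with the combination and 175 ± 16.9 CPM with DMSO (SD, n = 3 each). RN7SL1, an abundant noncoding RNA of protein targeting, took 1.17 to 4.56% of the counts, and the library highest in it within its group was combination 1, gilteritinib 2, MI-3454 3 or DMSO 2. These libraries were also the lowest of their group for 19, 24, 25 and 28 of the 37 genes in that order, and the part of this in the results was not tested. Some uniquely placed reads were assigned to no annotated feature, and whether they lay in introns or between genes is not given. Their share was 28.5 to 36.5% with the combination, 15.6 to 17.8% with gilteritinib, 17.4 to 25.5% with MI-3454 and 16.6 to 20.4% with DMSO. That share moved with the treatment, and its part in the results was not tested. In bulk RNA, fewer cells that express a gene and less RNA per cell cannot be told apart.

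The promoters of 6 genes that fell together with the combination against gilteritinib are printed here to show where the searched words stand, and they were chosen after their values were seen. RefSeq promoter entries of GRCh38.p14, which run from 250 bases before a gene's start to 50 bases after it, were found for 32 of the 37 genes. They were searched on both strands for the E2F-type words TTCCCGC and TTGGCGC, for TTTGAA, the core of the element bound by cell cycle repressors, and for CCAAT. An E2F-type word stood in 18 of the 32 entries (56.2%), against 14.8% of 15842 protein-coding genes. CCAAT stood in 16 of them (50%, against 42.1%) and TTTGAA in 3 (9.38%, against 15.9%). Each stretch is 100 bases long and lies upstream of the RefSeq start, outside annotated exons. The bases left between stretch and start were 0 for RAD54L and CHEK1, 19 for BLM, 34 for BRCA2, 53 for XRCC3 and 74 for FANCG. XRCC3 has TTCCCGC in its entry but outside the stretch shown. The stretches are written 5′ to 3′ on the gene's own strand, with the searched words in capitals, as they read on either strand. Such stretches could be taken for 11 genes that fell in that comparison or had a called interaction. TTCCCGC stood in 3 of the 11, RAD54L, BLM and FANCG, which are all shown. CCAAT stood in 6, of which RAD54L, BLM, XRCC3 and CHEK1 are shown, and 4 held none of the words, of which BRCA2 is shown. No word is thus shared by the 6 stretches. The RefSeq start used for CHEK1 lies 1088 bases inside the gene as GENCODE 29 draws it, so its stretch lies between annotated exons of that gene.
RAD54L, chr1:46247588-46247687, plus strand: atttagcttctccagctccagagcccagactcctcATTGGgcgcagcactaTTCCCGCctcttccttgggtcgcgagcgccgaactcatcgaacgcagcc
BLM, chr15:90717227-90717326, plus strand: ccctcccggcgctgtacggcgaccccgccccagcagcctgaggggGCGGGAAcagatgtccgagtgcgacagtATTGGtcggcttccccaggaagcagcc
FANCG, chr9:35080017-35080116, minus strand: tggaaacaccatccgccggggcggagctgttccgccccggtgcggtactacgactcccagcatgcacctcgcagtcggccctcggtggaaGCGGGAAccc
XRCC3, chr14:103715505-103715604, minus strand: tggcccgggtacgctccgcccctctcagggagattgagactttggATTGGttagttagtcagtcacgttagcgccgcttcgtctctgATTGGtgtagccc
BRCA2, chr13:32315374-32315473, plus strand: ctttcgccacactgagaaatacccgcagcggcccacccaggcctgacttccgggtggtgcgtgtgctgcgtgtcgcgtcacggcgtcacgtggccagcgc
CHEK1, chr11:125626124-125626223, plus strand: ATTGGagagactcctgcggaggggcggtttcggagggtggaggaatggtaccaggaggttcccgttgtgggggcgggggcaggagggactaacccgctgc
A match is a description of the letters and not a binding site.

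Levels between genes were compared as CPM per kb of exonic length in DMSO cultures. The highest were NBN, a subunit of the MRE11 nuclease complex, at 24.5 ± 3.65, RPA2 at 24.4 ± 0.551 and RPA1 at 22.4 ± 1.19 CPM per kb (SD, n = 3 each). NBN overlapped both subunits over the DMSO libraries, and RPA2 was above RPA1 in every DMSO library. TOPBP1, the activator of ATR, followed at 13.2 ± 2.24 and FANCI at 12.4 ± 1.23 CPM per kb. At the low end stood RAD50 at 0.605 ± 0.123 and RAD54B at 0.542 ± 0.14 CPM per kb, also within their spread of each other. RAD54B had 14 to 41 counts per library, the fewest of the 37. For 8 of the genes at least 10% of the exonic bases also belong to another annotated gene, and the strand setting of the counting is not given in the sources used here, so their counts are uncertain. The largest shares were 79.7% for RAD50, 76.7% for XRCC3 and 59.1% for RAD54B. KLC1, the partner of XRCC3, lies on the opposite strand. AC116366.3 and FSBP, the partners of RAD50 and RAD54B, lie on the same strand as these genes. Strand cannot separate their shared reads, so the low levels of RAD50 and RAD54B per kb are uncertain under any strand setting.

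**Figure D1:**
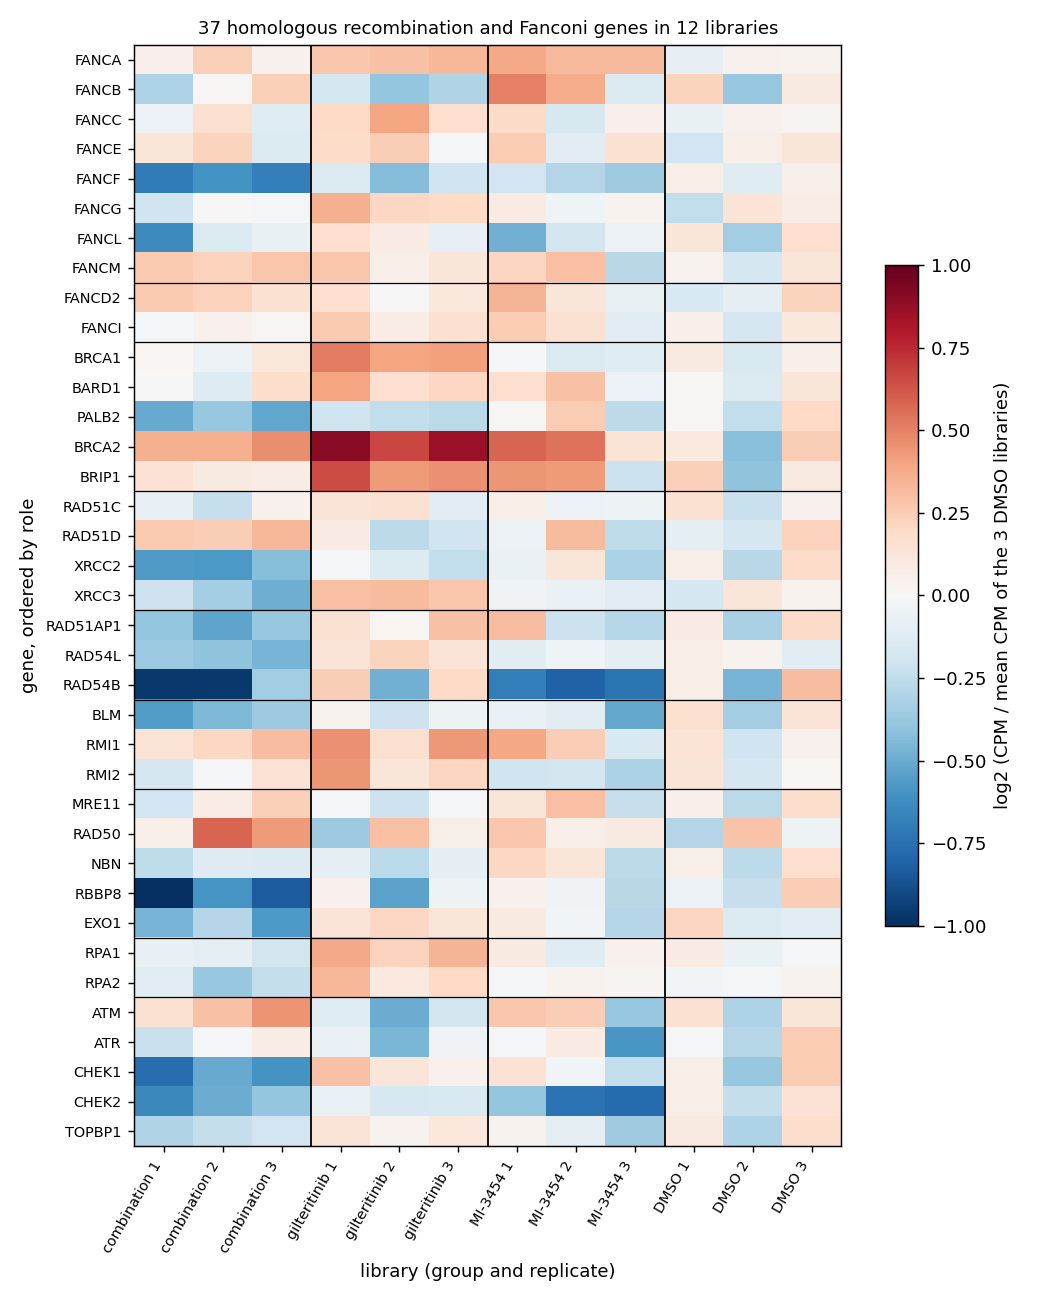
Level of each of the 37 genes in each of the 12 libraries, as the log2 of CPM over the mean CPM of the 3 DMSO libraries, rows ordered by role and columns by group; the colour scale ends at -1 and 1. The 3 combination columns are blue for FANCF, PALB2, XRCC2, RBBP8, EXO1 and CHEK1, and the 3 gilteritinib columns are red for BRCA1, BRCA2, BRIP1 and RPA1.

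With gilteritinib against DMSO, 4 of the 37 genes rose and 0 fell (10.8% called, against 15.1% of all tested genes, 6.92% higher and 8.18% lower). A gene was called where edgeR's quasi-likelihood test gave an adjusted p under 0.05 over all 13972 genes, and a gene that was not called is not shown to be unchanged. At an unadjusted p under 0.05, 8 changes were positive and 0 negative, and DESeq2's Wald test also called 4 that rose and 0 that fell. The 4 were BRCA1, BRCA2, the helicase gene BRIP1 and RPA1, with log2 changes of 0.44 to 0.82 for the first 3 and 0.32 for RPA1. The median log2 change was 0.14 over the 37 genes and 0.00 over all genes to within rounding. With total counts in place of TMM factors the median of all genes was -0.03, and the calls of BRIP1 and RPA1 were lost, which left 2 rises. Deviations of libraries with the same replicate number correlated at 0.142, 0.386 and 0.11 in this pair of groups. The largest value joins gilteritinib 2 and DMSO 2, each the highest of its group in RN7SL1. Gilteritinib 1 correlated more with DMSO 3, at 0.212, so it is uncertain that the numbers pair the libraries. A block on that number gave 10 genes that rose and 1 that fell, against 17.7% and 17.6% of all genes. The block added FANCA, FANCG, BARD1, XRCC3, RMI1 and RPA2 to the genes that rose, at log2 changes of 0.22 to 0.36, and ATM as the gene that fell, at -0.25. Without the library of each group highest in RN7SL1, 9 of the 37 genes rose and 3 fell. Over all genes 2132 rose and 2118 fell in that setting, against 967 and 1143 with every library. Leaving out 1 library at a time gave 1 to 6 that rose and 0 to 3 that fell (535 to 1928 and 677 to 2057 of all genes). Among the 37, the count of rises was 1 without gilteritinib 1 or gilteritinib 3 and 2 without gilteritinib 2 or DMSO 3, and 3 genes fell without DMSO 2.

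With MI-3454 against DMSO, 1 gene rose, FANCA, and 1 fell, CHEK2 (5.41% called, against 19% of all tested genes, 10.1% higher and 8.95% lower). With total counts the FANCA call was lost, and the median of all genes was 0.00 with either scaling. The remaining 35 lay between log2 changes of -0.73 and 0.44, with a median of 0.01 over the 37. The FANCA call was lost in 9 of 13 alternative settings and the CHEK2 call in 4 of 13, and with 1 library left out 0 or 1 gene was called in each direction. Neither was called without DMSO 1, DMSO 3 or MI-3454 2, and FANCA was also lost without MI-3454 1 or MI-3454 3.

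With the combination against DMSO, 11 genes fell and 1, BRCA2, rose (32.4% called, against 57.5% of all tested genes; 28.4% of all genes fell and 29.2% rose). The genes that fell were FANCF, PALB2, XRCC2, XRCC3, RAD51AP1, RAD54L, BLM, RBBP8, EXO1, CHEK1 and CHEK2. The share of genes called was below that of all genes, while rises made up 8.33% of the calls among the 37 genes and 50.7% of the calls over all genes. That split depended on the scaling: with total counts in place of TMM factors, which moved the median of all genes by 0.10, 5 of the 37 fell and 4 rose, so that rises made up 44.4% of the calls among the 37 genes and 59.2% of those over all genes. The calls lost with total counts were PALB2, XRCC3, RAD51AP1, RAD54L, BLM and EXO1. The median of the 37 was -0.07 with TMM factors and 0.04 with total counts. The median of the 37 minus that of all genes was -0.06 under both. With 1 library left out, 8 to 15 genes fell and 0 to 4 rose (3318 to 4342 and 3484 to 4216 of all genes). The rise was lost without combination 3, while 4 rose without DMSO 3 and 2 without DMSO 2 or combination 1.

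**Figure D2:**
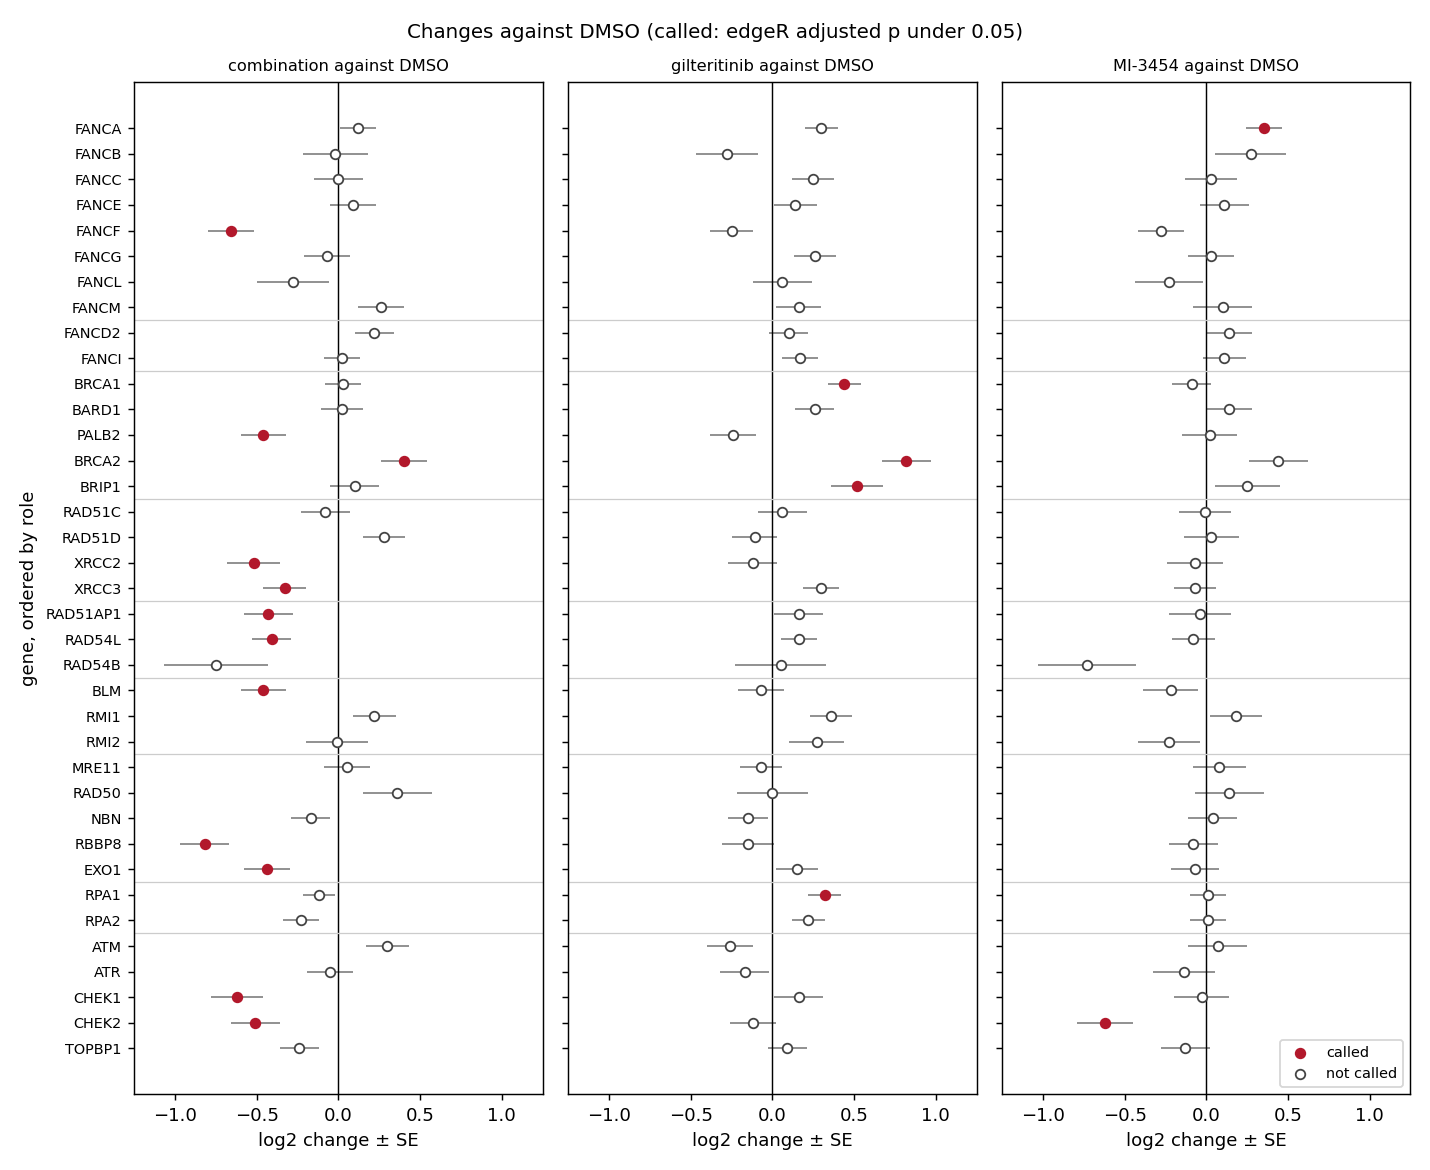
Log2 change ± SE of each gene against DMSO, for the combination, gilteritinib and MI-3454 from left to right, filled where edgeR's adjusted p was under 0.05. RBBP8 at -0.82, FANCF at -0.66 and CHEK1 at -0.62 are the lowest filled points with the combination, and BRCA2 at 0.82 is the highest with gilteritinib.

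The combination against gilteritinib alone gave the most calls among the 5 pairs of groups. Here 18 of the 37 genes fell and 2, RAD51D and ATM, rose (54.1% called, against 60.4% of all tested genes). The share that fell was 48.6%, against 30.3% of all genes, and the share that rose was 5.41%, against 30.1%. The median log2 change was -0.32 over the 37 genes and 0.00 over all genes. Total counts moved the median of all genes by 0.13 and gave 11 that fell and 3 that rose, with rises at 21.4% of the calls, against 10% with TMM factors, and a median of -0.19 over the 37. The calls lost with total counts were FANCF, FANCG, XRCC2, RAD54B, BLM, CHEK2 and TOPBP1. With 1 library left out, 13 to 21 fell and 2 to 3 rose (3608 to 4241 and 3662 to 4110 of all genes).

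With the combination against MI-3454 alone, 5 genes fell and 0 rose (13.5% called, against 29.2% of all tested genes; 15.1% of all genes fell). At an unadjusted p under 0.05, 0 changes were positive and 11 negative, and DESeq2's Wald test called 3 that fell and 0 that rose. The 5 were PALB2, XRCC2, RAD54L, RBBP8 and CHEK1. The median was -0.08, against -0.01 over all genes. Only RBBP8 and CHEK1 were called in all 13 alternative settings. With total counts, which moved the median of all genes by 0.09, the falls of PALB2, XRCC2 and RAD54L were lost, and DESeq2's Wald test lost XRCC2 and RAD54L. Leaving out MI-3454 replicate 3 gave 11 falls, and leaving out any of MI-3454 1, MI-3454 2 or a combination library gave 2. Leaving out the library of each group highest in RN7SL1 gave 12. Over all genes 2670 fell without MI-3454 3, and 1287 to 1982 fell in the fits that gave 2. Without the libraries highest in RN7SL1 2894 of all genes fell, against 2103 with every library.

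The interaction term asks whether the log2 change with both agents departed from the sum of the changes with each agent alone. It was negative and called for 7 genes and positive and called for 0 (18.9% called, against 15.3% of all tested genes; 8.74% of all genes were called negative and 6.55% positive). At an unadjusted p under 0.05, 0 were positive and 13 negative, and DESeq2's Wald test called 7 negative and 0 positive. The 7 were FANCA, BRCA2, XRCC3, RAD54L, RPA1, RPA2 and CHEK1. With total counts, which moved the median of all genes by 0.11, none of the 7 was called. The median over the 37 was -0.25 with TMM factors and -0.12 with total counts. With 1 library left out, 2 to 9 of the 37 genes were called negative (715 to 1636 of all genes), with FANCA and BRCA2 called each time. Without combination replicate 2 or replicate 3 the count was 2, without DMSO replicate 3 or gilteritinib replicate 3 it was 4, and without gilteritinib replicate 1 or MI-3454 replicate 1 it was 3.

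The values of separate libraries give the same comparisons without a test. With gilteritinib against DMSO, 12 genes had all 3 libraries above every DMSO library and 1 had all 3 below, against 17.1% and 16.5% of all genes (33.6% in either direction). With MI-3454 against DMSO these numbers were 1 above and 4 below, against 18% and 16.6% (34.6%), and with the combination against DMSO 4 above and 13 below, against 31.9% and 30.9% (62.8%). The combination lay wholly above gilteritinib for 2 genes and wholly below it for 21, against 32.7% and 33.7% of all genes (66.4%). It lay wholly above MI-3454 for 1 gene and wholly below it for 11, against 22.2% and 22.6% (44.8%).

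**Figure D3:**
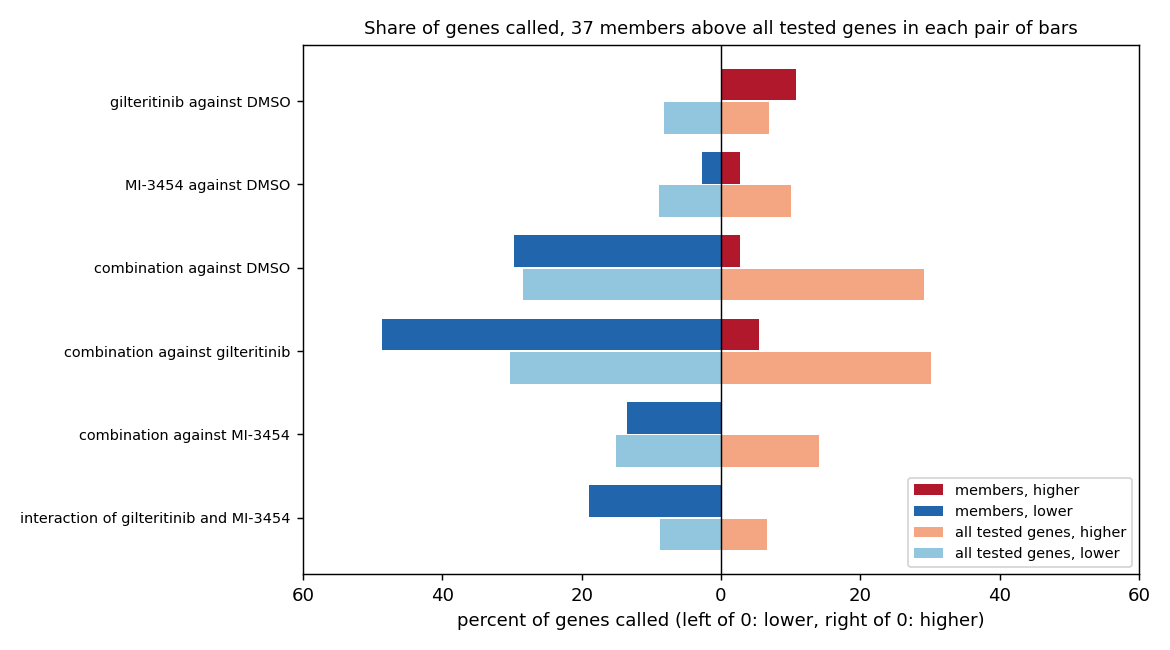
Percent of genes called lower (left of 0) and higher (right of 0) in each comparison, the 37 genes in dark bars above all 13972 tested genes in light bars. In the combination against gilteritinib 48.6% of the 37 genes fell, against 30.3% of all genes, and 5.41% rose, against 30.1%.

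The core complex, which places ubiquitin on the FANCD2-FANCI clamp, is represented by 8 genes. FANCF, an adaptor that holds the complex together, had 11.9, 12.8 and 12 CPM with the combination, 17.4, 14.3 and 16.8 CPM with gilteritinib, 16.9, 15.7 and 15.1 CPM with MI-3454, and 20.2, 17.7 and 20.1 CPM with DMSO. Every combination library was below every library of the other groups. FANCF fell by 0.66 ± 0.14 (log2 ± SE; edgeR adjusted p = 0.000747) against DMSO and by 0.40 ± 0.12 (adjusted p = 0.0124) against gilteritinib. The call against DMSO held in all 13 alternatives, and that against gilteritinib was lost with total counts and without gilteritinib replicate 1 (adjusted p 0.00349 to 0.109 over the alternatives). Against MI-3454 its change was -0.37 ± 0.13 (adjusted p = 0.0556).

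FANCA is another core subunit. Its levels were 56.8, 64.4 and 56.4 CPM with the combination, 66.1, 67.0 and 69.0 CPM with gilteritinib, 71.2, 68.6 and 68.7 CPM with MI-3454, and 51.7, 56.5 and 56.1 CPM with DMSO. Both single agents gave values above all DMSO values, and the combination overlapped the DMSO range. It rose by 0.35 ± 0.11 with MI-3454 (edgeR adjusted p = 0.046, 0.0062 to 0.184 over the alternatives), a call lost without any of DMSO 1, DMSO 3 or an MI-3454 library. With gilteritinib the change was 0.30 ± 0.10 (adjusted p = 0.0531), and 0.00206 with the replicate block. The interaction was -0.53 ± 0.12 (adjusted p = 0.00814). FANCA shares 23.6% of its exonic bases with ZNF276 on the opposite strand, and ZNF276 fell with each treatment against DMSO, by 0.69 ± 0.14 with the combination, 0.50 ± 0.13 with gilteritinib and 0.63 ± 0.14 with MI-3454.

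FANCG, which binds FANCA, had 20.2, 23.3 and 23.1 CPM with the combination and 29.7, 26.8 and 26.6 CPM with gilteritinib, with no overlap. It fell by 0.32 ± 0.10 between them (edgeR adjusted p = 0.0157), a call lost without combination replicate 1 or gilteritinib replicate 1 (adjusted p 0.00595 to 0.188 over the alternatives). FANCG carries the E2F-type word in the promoter shown earlier. The other 5 core genes were not called in any comparison: FANCB and FANCC, the adaptor subunit FANCE, the ubiquitin ligase FANCL and the translocase FANCM, which anchors the complex to DNA. Their log2 changes with the combination against DMSO lay between -0.28 for FANCL and 0.26 for FANCM. FANCL was among the lowest in counts, with 45 to 94 per library. FANCD2 and FANCI, the clamp itself, were also not called in any comparison. FANCD2 had 70.9, 69.3 and 65.4 CPM with the combination, 66.3, 59.1 and 63.4 CPM with gilteritinib, 74.4, 64.3 and 56.1 CPM with MI-3454, and 53, 55.2 and 68.7 CPM with DMSO, and the groups overlapped. FANCI changed by 0.17 ± 0.11 with gilteritinib and by 0.02 ± 0.11 with the combination, both against DMSO.

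Of the 5 genes BRCA1, BARD1, PALB2, BRCA2 and BRIP1, 3 rose with gilteritinib against DMSO. BRCA2, which acts at the resected break, had 76.0, 76.0 and 81.8 CPM with the combination, 111, 94.3 and 108 CPM with gilteritinib, 88.6, 86.5 and 65.2 CPM with MI-3454, and 63.4, 44.3 and 70.2 CPM with DMSO. All gilteritinib libraries were above all others, and all combination libraries were above all DMSO libraries. BRCA2 rose 1.76-fold with gilteritinib against DMSO, a log2 change of 0.82 ± 0.15 (edgeR adjusted p = 0.00327), which held in all 13 alternatives. It rose by 0.40 ± 0.14 with the combination against DMSO (adjusted p = 0.0225), lost without combination replicate 3 (adjusted p 0.00279 to 0.0775 over the alternatives). The combination stood 0.41 ± 0.08 lower than gilteritinib (log2, adjusted p = 0.000612, held in all 13 alternatives). With MI-3454 against DMSO its change was 0.44 ± 0.18 (adjusted p = 0.112). DMSO 2 and MI-3454 3, the libraries highest in RN7SL1 in their groups, were the lowest BRCA2 values there.

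BRCA1 is a ubiquitin ligase that also acts at the resected break. It had 57.7, 54.5 and 61.6 CPM with the combination, 81.1, 74.7 and 75.4 CPM with gilteritinib, 56.2, 51.5 and 52.2 CPM with MI-3454, and 60.6, 51.3 and 58.8 CPM with DMSO. Gilteritinib alone stood apart, and the other 3 groups overlapped. The rise with gilteritinib against DMSO was 0.44 ± 0.10 (log2, edgeR adjusted p = 0.0131), lost without gilteritinib 1 or gilteritinib 3 (adjusted p 5.78e-06 to 0.076 over the alternatives). Against gilteritinib, the combination was lower by 0.41 ± 0.08 (adjusted p = 0.000527) in all 13 alternatives. BRIP1, a helicase bound by BRCA1, was also highest with gilteritinib, with 25.7 ± 0.644 CPM with the combination, 34.3 ± 2.94 CPM with gilteritinib, 28.5 ± 6.81 CPM with MI-3454 and 24 ± 5.2 CPM with DMSO (SD, n = 3 each). Its rise of 0.52 ± 0.16 with gilteritinib (adjusted p = 0.0441) was lost without DMSO 3 or any gilteritinib library (adjusted p 2.41e-05 to 0.151 over the alternatives), and its fall of 0.41 ± 0.10 with the combination against gilteritinib had an adjusted p of 0.00243, or 0.0524 in a fit to all 12 libraries.

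**Figure D4:**
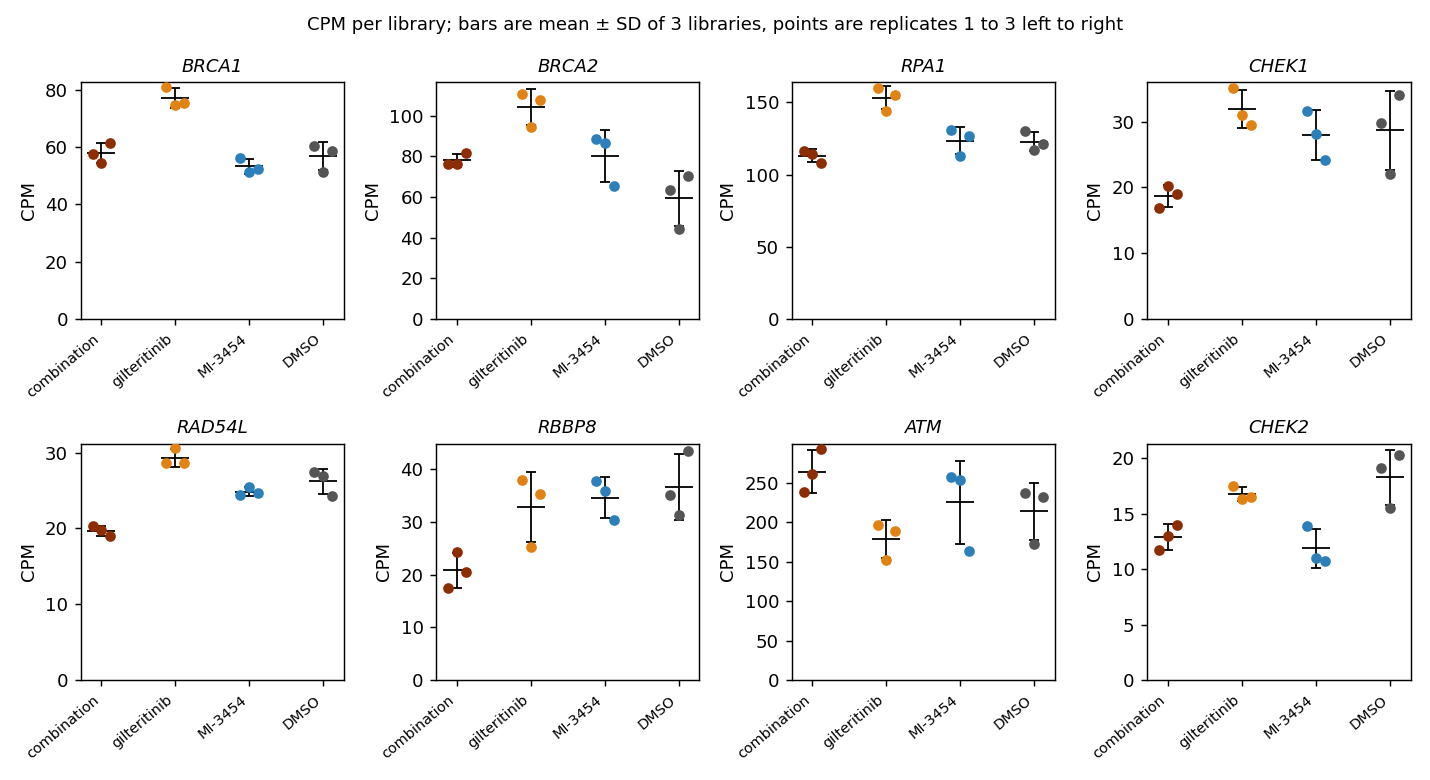
CPM of 8 genes in every library, combination, gilteritinib, MI-3454 and DMSO from left to right, with the mean ± SD of 3 libraries per group and an axis that starts at 0. BRCA1, BRCA2 and RPA1 are highest with gilteritinib, CHEK1, RAD54L and RBBP8 are lowest with the combination, and ATM reached 292 CPM with the combination.

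BARD1, the partner of BRCA1, was not called in any comparison, with 0.26 ± 0.12 (log2) for gilteritinib against DMSO and an adjusted p of 0.0248 with the replicate block. PALB2, which links BRCA1 to BRCA2, fell with the combination. It had 17.1, 18.6 and 16.9 CPM with the combination, 21.0, 20.4 and 20.1 CPM with gilteritinib, 24.4, 28.9 and 20.2 CPM with MI-3454, and 24.4, 20.4 and 27.8 CPM with DMSO. The combination libraries were the 3 lowest of the 12. PALB2 fell by 0.46 ± 0.14 against DMSO (edgeR adjusted p = 0.0106) and by 0.48 ± 0.15 against MI-3454 (adjusted p = 0.03). The call against DMSO was lost without DMSO 3 (adjusted p 0.000611 to 0.0605 over the alternatives). That against MI-3454 was lost without MI-3454 1, MI-3454 2 or any combination library (adjusted p 0.00142 to 0.115).

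RAD51C, RAD51D, XRCC2 and XRCC3 encode related proteins that form complexes in homologous recombination, and with the combination against gilteritinib XRCC2 and XRCC3 fell while RAD51D rose. XRCC3 had 32.3, 29.6 and 26.6 CPM with the combination, 45.9, 46.6 and 45.2 CPM with gilteritinib, 36.6, 35.6 and 34.6 CPM with MI-3454, and 33.1, 40.5 and 38.4 CPM with DMSO. The gilteritinib values were the 3 highest and the combination values the 3 lowest of the 12. It fell by 0.62 ± 0.09 with the combination against gilteritinib (edgeR adjusted p = 6.14e-05, in all 13 alternatives). Against DMSO it fell by 0.33 ± 0.13 (adjusted p = 0.0318), lost without DMSO 3, combination 2 or combination 3 (adjusted p 0.0116 to 0.139). Its opposite-strand partner KLC1, a kinesin light chain gene, rose by 0.97 ± 0.10 with the combination against gilteritinib, and the reads of the shared bases cannot be told apart without a stated strand setting.

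XRCC2, a partner of RAD51D, had 11.8, 11.7 and 13.0 CPM with the combination, 17.4, 15.9 and 14.7 CPM with gilteritinib, 16.7, 19.0 and 14.0 CPM with MI-3454, and 18.2, 14.4 and 19.8 CPM with DMSO. The combination was below every other library. The falls were 0.52 ± 0.16 against DMSO (edgeR adjusted p = 0.00893), held in all 13 alternatives, 0.40 ± 0.12 against gilteritinib (adjusted p = 0.0131) and 0.44 ± 0.15 against MI-3454 (adjusted p = 0.0474). The call against gilteritinib was lost without gilteritinib 1 or combination 2 (adjusted p up to 0.107), and that against MI-3454 without MI-3454 1, MI-3454 2 or any combination library (up to 0.16). RAD51D rose by 0.39 ± 0.11 with the combination against gilteritinib (adjusted p = 0.00614, in all 13 alternatives), with 29.4, 29.1 and 31.0 CPM with the combination and 26.0, 20.5 and 21.4 CPM with gilteritinib. RAD51C was not called in any comparison, at -0.14 ± 0.13 in that one.

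RAD54L, RAD54B and RAD51AP1, whose proteins act in the invasion of the sister chromatid, were all 3 lower with the combination than with gilteritinib. RAD54L, a motor protein that remodels DNA during recombination, had 20.3, 19.8 and 19.0 CPM with the combination, 28.6, 30.6 and 28.6 CPM with gilteritinib, 24.4, 25.5 and 24.6 CPM with MI-3454, and 27.4, 26.9 and 24.3 CPM with DMSO. The combination was below every other library and gilteritinib above every other. RAD54L fell by 0.56 ± 0.10 against gilteritinib (edgeR adjusted p = 0.000243, in all 13 alternatives) and by 0.41 ± 0.12 against DMSO (adjusted p = 0.0104), where total counts alone ended the call (adjusted p = 0.0515). Against MI-3454 it fell by 0.32 ± 0.11 (adjusted p = 0.0491), lost without MI-3454 1, MI-3454 2 or any combination library (adjusted p 0.0196 to 0.183). RAD54L shares 25.1% of its exonic bases with LRRC41 on the opposite strand, which changed by -0.16 ± 0.08 (adjusted p = 0.0919) against gilteritinib.

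RAD51AP1, which aids strand invasion, had 14.8, 13.5 and 15.0 CPM with the combination, 21.7, 19.8 and 24 CPM with gilteritinib, 24.2, 16.8 and 16.1 CPM with MI-3454, and 20.6, 15.6 and 22.3 CPM with DMSO. The combination values were the 3 lowest of the 12. It fell by 0.59 ± 0.12 against gilteritinib (edgeR adjusted p = 0.000611, in all 13 alternatives). Against DMSO it fell by 0.43 ± 0.15 (adjusted p = 0.0246), lost without DMSO 1, DMSO 3 or combination 2 (adjusted p 0.000884 to 0.107). RAD54B, a relative of RAD54L, had 17, 14 and 16 counts with the combination and 41, 17 and 30 with gilteritinib. Its fall of 0.80 ± 0.30 against gilteritinib (adjusted p = 0.0311) was lost without gilteritinib 1, gilteritinib 3, combination 1 or combination 2 (adjusted p 0.0102 to 0.124), and by DESeq2's Wald test.

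BLM, RMI1 and RMI2 separate joined chromosomes after recombination without crossing over. BLM, the helicase, had 35.6, 38.4 and 40.6 CPM with the combination, 53.7, 45.3 and 50.7 CPM with gilteritinib, 49.9, 48.6 and 36.8 CPM with MI-3454, and 58.6, 41.1 and 57.5 CPM with DMSO. The combination was below all gilteritinib and DMSO libraries and overlapped MI-3454 through MI-3454 3. BLM fell by 0.46 ± 0.14 against DMSO (edgeR adjusted p = 0.00881), lost without DMSO 1 (adjusted p 3.19e-05 to 0.062), and by 0.38 ± 0.09 against gilteritinib (adjusted p = 0.00232, or 0.065 with total counts). RMI1 and RMI2, its partners, were not called in any comparison. RMI1 changed by 0.36 ± 0.13 with gilteritinib against DMSO, with an adjusted p of 0.0916, or 0.00433 with the replicate block.

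Of the 5 genes that resect break ends, RBBP8 and EXO1 fell and the MRE11 complex was not called. RBBP8 encodes the cofactor that starts resection by MRE11. It had 17.5, 24.3 and 20.5 CPM with the combination, 37.8, 25.2 and 35.3 CPM with gilteritinib, 37.7, 35.7 and 30.3 CPM with MI-3454, and 35.1, 31.3 and 43.4 CPM with DMSO. Every combination library was below every other library, gilteritinib 2 coming nearest. The log2 changes were -0.82 ± 0.15 against DMSO, a level 0.568 times that of DMSO (edgeR adjusted p = 0.00022), -0.66 ± 0.15 against gilteritinib (adjusted p = 0.00169) and -0.73 ± 0.14 against MI-3454 (adjusted p = 0.00312). All 3 calls held in all 13 alternatives. With the single agents against DMSO the changes were -0.15 ± 0.16 with gilteritinib and -0.08 ± 0.15 with MI-3454, neither called, and the interaction of -0.58 ± 0.23 was not called (adjusted p = 0.105).

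EXO1, a nuclease that extends resection, had 19.7, 22.2 and 18.3 CPM with the combination, 29.8, 31.3 and 29.6 CPM with gilteritinib, 29, 26.7 and 22.2 CPM with MI-3454, and 31.5, 24.7 and 25.3 CPM with DMSO. It fell by 0.58 ± 0.10 against gilteritinib (edgeR adjusted p = 0.000288, in all 13 alternatives) and by 0.44 ± 0.14 against DMSO (adjusted p = 0.0128), the second call lost without DMSO 1 or combination 3 (adjusted p 0.00223 to 0.0785). No combination library reached the gilteritinib or DMSO range. MRE11, the nuclease, RAD50, the ATPase that tethers the ends, and NBN, which recruits ATM, were not called in any comparison. With the combination against DMSO they changed by 0.05 ± 0.14, 0.36 ± 0.21 and -0.17 ± 0.12 in that order.

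RPA coats single-stranded DNA during replication and resection, and its RPA1 and RPA2 subunit genes were highest with gilteritinib. RPA1 had 117, 115 and 108 CPM with the combination, 160, 144 and 155 CPM with gilteritinib, 131, 113 and 126 CPM with MI-3454, and 130, 117 and 121 CPM with DMSO. It rose by 0.32 ± 0.10 with gilteritinib against DMSO (edgeR adjusted p = 0.0434), lost with total counts, without a filter on low counts, and without DMSO 1, DMSO 3 or any gilteritinib library (adjusted p 0.000323 to 0.177). It was lower by 0.43 ± 0.08 with the combination than with gilteritinib (adjusted p = 0.000275), and RPA2 by 0.44 ± 0.09 (adjusted p = 0.00099), both in all 13 alternatives. RPA2 had 45.5, 37.9 and 41.8 CPM with the combination and 62.1, 52.7 and 56.5 CPM with gilteritinib. For both subunits the gilteritinib libraries were above every library of the other groups.

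Of the 5 checkpoint genes, CHEK1, CHEK2 and TOPBP1 fell and ATM rose with the combination against gilteritinib. CHEK1, the effector kinase of the ATR arm, had 16.9, 20.2 and 19.0 CPM with the combination, 35.1, 31.1 and 29.5 CPM with gilteritinib, 31.6, 28.1 and 24.1 CPM with MI-3454, and 29.8, 22.1 and 34.1 CPM with DMSO. The combination values were the 3 lowest of the 12. CHEK1 stood at 0.586 times its gilteritinib level, a log2 change of -0.77 ± 0.11 (edgeR adjusted p = 3.75e-05). The falls were 0.62 ± 0.16 against DMSO (adjusted p = 0.003) and 0.58 ± 0.14 against MI-3454 (adjusted p = 0.00861), and all 3 calls held in all 13 alternatives. With gilteritinib against DMSO its change was 0.16 ± 0.15, and with MI-3454 -0.03 ± 0.17.

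CHEK2, the effector of the ATM arm, had 11.7, 13.0 and 14.0 CPM with the combination, 17.5, 16.4 and 16.5 CPM with gilteritinib, 13.9, 11 and 10.7 CPM with MI-3454, and 19.2, 15.5 and 20.3 CPM with DMSO. Both groups with MI-3454 lay below both groups without it. CHEK2 fell by 0.51 ± 0.15 with the combination against DMSO (edgeR adjusted p = 0.00869, in all 13 alternatives), by 0.38 ± 0.12 against gilteritinib (adjusted p = 0.0129) and by 0.62 ± 0.17 with MI-3454 against DMSO (adjusted p = 0.023). The call against gilteritinib was lost without gilteritinib 1 or combination 1 (adjusted p 0.00582 to 0.122), and that with MI-3454 without DMSO 1, DMSO 3 or MI-3454 2 (0.00355 to 0.0936). The combination against MI-3454 gave 0.12 ± 0.16, not called.

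ATM, the kinase that senses breaks, had 238, 261 and 292 CPM with the combination, 196, 152 and 189 CPM with gilteritinib, 257, 253 and 164 CPM with MI-3454, and 237, 172 and 232 CPM with DMSO. The combination was above all gilteritinib and DMSO libraries. It rose by 0.57 ± 0.11 against gilteritinib (edgeR adjusted p = 0.000403, in all 13 alternatives), and its change of 0.30 ± 0.13 against DMSO was not called (adjusted p = 0.0528). With gilteritinib against DMSO its change of -0.26 ± 0.14 was not called (adjusted p = 0.247), or called lower with the replicate block (0.00472). TOPBP1 fell by 0.33 ± 0.07 with the combination against gilteritinib (adjusted p = 0.00167, or 0.0724 with total counts), at 78.0, 81.6 and 84.5 CPM with the combination and 105, 98.7 and 104 CPM with gilteritinib. ATR, the kinase that senses single-stranded DNA, was not called in any comparison, at 0.12 ± 0.11 in that one.

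**Figure D5:**
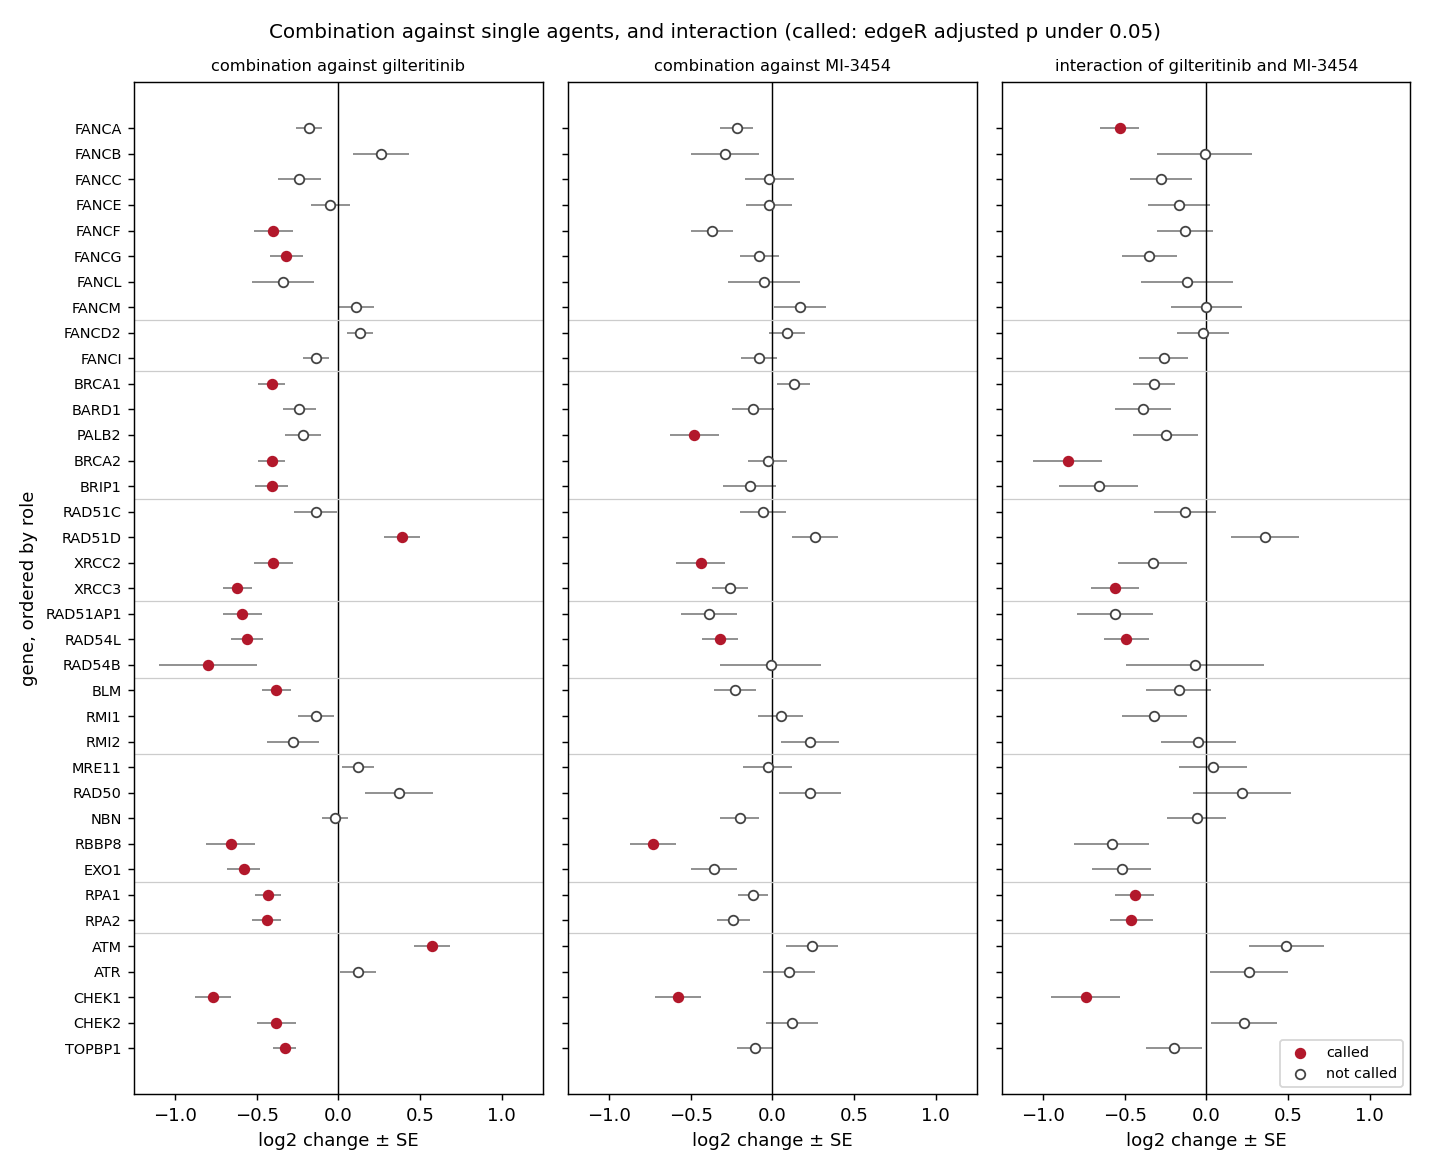
Log2 change ± SE of each gene for the combination against gilteritinib, the combination against MI-3454 and the interaction term, from left to right, filled where edgeR's adjusted p was under 0.05. In the left panel 18 filled points lie below 0, with RAD54B at -0.80 and CHEK1 at -0.77 the lowest, and RAD51D at 0.39 and ATM at 0.57 lie above 0.

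For the 7 genes with a called interaction, the sum of the single-agent changes lay above the change with both. For BRCA2 the changes against DMSO were 0.40 with the combination, 0.82 with gilteritinib and 0.44 with MI-3454, and the interaction was -0.85 ± 0.21 (log2, edgeR adjusted p = 0.0121). CHEK1 had an interaction of -0.74 ± 0.21 (adjusted p = 0.0293), XRCC3 of -0.56 ± 0.15 (0.0168) and RAD54L of -0.49 ± 0.14 (0.0266). RPA1 and RPA2 had interactions of -0.44 ± 0.12 (0.0232) and -0.46 ± 0.13 (0.0291). Of these, XRCC3 was lost without DMSO 1, combination 2 or combination 3, and RAD54L, RPA1, RPA2 and CHEK1 were each lost in 6 to 8 of the 12 fits that left out 1 library. The terms against DMSO share the DMSO libraries, so they are not independent of one another.

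An E2F-type word was found in 10 of the 16 genes with an entry that fell with the combination against gilteritinib, and in 8 of the 16 others. Among the genes with a called interaction, 4 of 6 with an entry had it. ATM, RBBP8, CHEK1, BRCA2, CHEK2 and FANCF were among the genes whose entries had no match to either E2F-type word. This says only that these letters are not in that window, and ATM holds TTTGAA and CCAAT. The RefSeq start used for RBBP8 lies 135067 bases inside the gene as GENCODE 29 draws it, and that for CHEK1 1088 bases inside.

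Other genes of the pathway changed in both directions, and the share called was below that of all genes. Of 42 tested genes from a list of 43 further recombination and Fanconi genes, 8 rose and 9 fell with the combination against DMSO (40.5% called, against 57.5% of all genes), and 7 rose and 12 fell against gilteritinib (45.2%, against 60.4%). UBE2T, which charges ubiquitin for the core complex, fell by 0.97 ± 0.16 with the combination against DMSO (edgeR adjusted p = 9.8e-05) and by 1.19 ± 0.15 against gilteritinib (1.24e-05). RAD52, an annealing protein, rose by 0.96 ± 0.18 against DMSO (0.000309) and FAN1, a crosslink nuclease, rose by 0.89 ± 0.10 against gilteritinib (4.62e-06). With gilteritinib alone and with MI-3454 alone, 2 of the 42 rose and 2 fell in each (9.52% called, against 15.1% of all genes with gilteritinib and 19% with MI-3454).

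Of 17 further checkpoint and damage response genes, 5 rose with gilteritinib against DMSO, 2 rose and 3 fell with the combination against DMSO, and 1 rose and 8 fell with the combination against gilteritinib. The shares called were 29.4%, 29.4% and 52.9% in that order, against 15.1%, 57.5% and 60.4% of all genes. H2AX, the histone variant marked at breaks, rose by 0.72 ± 0.14 with gilteritinib against DMSO (edgeR adjusted p = 0.00389) and was lower by 0.87 ± 0.11 with the combination than with gilteritinib (1.22e-05). CDC25A, the phosphatase that CHEK1 marks for destruction, was lower by 0.77 ± 0.11 in that comparison (3.58e-05), and WEE1, the kinase that restrains CDK1, by 0.59 ± 0.09 (9.09e-05). End joining, the other route of break repair, had 9 tested genes from a list of 10, of which XRCC6 fell with the combination against DMSO, by 0.54 ± 0.10 (0.000328), and XRCC5 and XRCC6 fell against gilteritinib (11.1% and 22.2% called, against 57.5% and 60.4% of all genes). Of 29 mismatch and excision repair genes, 7 rose and 13 fell with the combination against gilteritinib (69% called, against 60.4% of all genes), where UNG fell by 1.03 ± 0.09 (4.27e-07) and NEIL3 rose by 1.14 ± 0.09 (1.45e-07).

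Genes of replication and mitosis changed in the same comparisons. Of 25 replication genes, 12 rose with gilteritinib against DMSO, 1 rose and 17 fell with the combination against DMSO, and 24 fell with the combination against gilteritinib. The shares called were 48%, 72% and 96% in that order, against 15.1%, 57.5% and 60.4% of all genes. Their median log2 changes were 0.32, -0.37 and -0.75 in the same order, beside 0.14, -0.07 and -0.32 for the 37 genes. CDT1, which licenses origins, fell by 1.21 ± 0.12 and MCM2, a subunit of the replicative helicase, by 1.09 ± 0.11 with the combination against gilteritinib (edgeR adjusted p = 1.18e-06 and 9.12e-07). Of 18 mitosis genes, 15 rose with gilteritinib against DMSO and 15 fell with the combination against gilteritinib, while 4 rose and 4 fell with the combination against DMSO. The shares called were 83.3%, 83.3% and 44.4% in that order, against 15.1%, 60.4% and 57.5% of all genes. MKI67, a marker of cycling cells, averaged 499 ± 31.7 CPM with the combination, 567 ± 49.3 CPM with gilteritinib, 445 ± 48 CPM with MI-3454 and 288 ± 7 CPM with DMSO (SD, n = 3 each). Among 27 regulators of the cell cycle programme, 20 fell and 1 rose with the combination against gilteritinib (77.8% called, against 60.4% of all genes), among them CCND2, a D cyclin gene, which fell by 1.60 ± 0.09 (5.57e-09), and MYC, which fell by 1.34 ± 0.11 (1.13e-07). Of 15 tested p53 target genes, 3 rose and 7 fell with the combination against DMSO (66.7% called, against 57.5% of all genes). The part of these lists in the changes of the 37 genes was not tested.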

How the data were processed

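Per the labels' protocols, ribosomal RNA was depleted from total RNA and libraries were made with a TruSeq kit. Per the submitters' processing notes, the build was GRCh38 and the tools HTSeq 0.11.2, STAR 2.7.1a, cutadapt 2.1 and DESeq2, with no role given. Neither the annotation release nor the strand setting is given there. Raw counts per gene were deposited for each library, without normalization by the authors, and 5 summary rows per file were left out of library sizes. Groups and replicate numbers came from the sample titles. Gene symbols were joined on the Ensembl identifier (60340 of 60668 genes matched) and coordinates from GENCODE 29 (58561 matched).

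Counts were tested in R 4.3.3 with edgeR 4.0.16 (quasi-likelihood test, TMM scaling among the libraries of each fit, Benjamini-Hochberg adjustment) and limma 3.58.1. Genes that passed filterByExpr with the 4 groups over 12 libraries were tested. Each pair of groups had its own fit of 6 libraries, and the interaction used all 12. CPM used TMM scaling over 12 libraries, and the SE was derived from the log2 change and its F statistic. The test was checked on simulated counts. Alternatives in scaling, test and filter were DESeq2's size factors, total counts only, the DESeq2 1.42.0 Wald test and no filter on low counts. The other alternatives were a replicate block, a fit to all 12 libraries, each library left out in turn, and the library of each group highest in RN7SL1 left out. That makes 13 alternatives per pair and 18 for the interaction.

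In the labels the groups share replicate numbers. Libraries of gilteritinib and DMSO with the same number correlated in their deviations from the group means, at 0.142, 0.386 and 0.11, each over 0.1, although gilteritinib 1 correlated more with DMSO 3, at 0.212. The block is therefore given beside those results. In the other comparisons at least 1 same-number pair fell below 0.1. All 37 genes may be named. Of other lists, up to 4 called genes with the largest log2 change per comparison are named. Members and lists were chosen with earlier results of these data known.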

Additional observations from a re-analysis of the deposited data

Results flagged for a closer look

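The interaction of gilteritinib and MI-3454 was called for 7 of the 37 genes (18.9%, against 15.3% of all tested genes). A called term says that, with TMM factors, the log2 change with gilteritinib differed between cultures with and without MI-3454. None of the 7 was called with total counts, and 2 to 9 genes were called negative with 1 library left out. The term was -0.53 for FANCA, -0.85 for BRCA2, -0.56 for XRCC3, -0.49 for RAD54L, -0.44 for RPA1, -0.46 for RPA2 and -0.74 for CHEK1. Gilteritinib added to MI-3454 changed BRCA2 by -0.03 ± 0.12 (log2 ± SE) and FANCA by -0.22 ± 0.10, neither called, and gilteritinib added to DMSO changed them by 0.82 ± 0.15 and 0.30 ± 0.10, of which BRCA2 was called.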

How the results depend on the processing

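Counts are genes of the 37 that rose and fell. With total counts only, they were 2 and 0 for gilteritinib, 0 and 1 for MI-3454 and 4 and 5 for the combination against DMSO, 3 and 11 for the combination against gilteritinib, 0 and 2 against MI-3454, and 0 and 0 for the interaction. Total counts move the centre of all genes, as given beside each comparison. With the replicate block, they were 10 and 1 for gilteritinib, 0 and 0 for MI-3454, 2 and 12 for the combination against DMSO, 2 and 18 against gilteritinib, 0 and 3 against MI-3454, and 0 and 6 for the interaction. Over all tested genes the block gave 2474 and 2454 for gilteritinib, 900 and 778 for MI-3454 and 4177 and 4004 for the combination against DMSO. It gave 4129 and 4075 for the combination against gilteritinib, 1486 and 1553 against MI-3454, and 758 and 999 for the interaction. Outside gilteritinib against DMSO no pairing by number was assumed, since at least 1 same-number correlation in each was under 0.1 (range -0.393 to 0.207). With 3 libraries per group these correlations cannot show that the libraries were unpaired. In all 5 pairs of groups, gilteritinib against DMSO included, some library correlated better with another number than with its own. DESeq2's Wald test gave 0 rises for MI-3454 and 3 falls for the combination against MI-3454. A fit to all 12 libraries gave 2 rises for MI-3454 and 8 falls for the combination against MI-3454. Without a filter on low counts, 1 interaction was called positive. Without the library of each group highest in RN7SL1, the counts were 9 and 3 for gilteritinib, 2 and 1 for MI-3454 and 3 and 14 for the combination against DMSO. In the same setting they were 3 and 20 for the combination against gilteritinib, 0 and 12 against MI-3454, and 1 and 14 for the interaction. Calls over all tested genes rose there too. They were 2132 and 2118 for gilteritinib, 1926 and 2019 for MI-3454 and 4244 and 4425 for the combination against DMSO. For the combination they were 4422 and 4555 against gilteritinib and 2554 and 2894 against MI-3454. The interaction had 1285 and 2193 over all tested genes, against 915 and 1221 with every library. With 1 library left out, the counts of the 37 ranged over 1 to 6 and 0 to 3 for gilteritinib, 0 to 1 and 0 to 1 for MI-3454, 0 to 4 and 8 to 15 for the combination against DMSO, 2 to 3 and 13 to 21 against gilteritinib, 0 to 1 and 2 to 11 against MI-3454, and 0 and 2 to 9 for the interaction. The cause was not tested. Over single genes, settings and comparisons, 129 values lost a call, 97 gained one, and no called value changed sign. All others stayed on their side of the threshold. Of these, 37 were not called either way but moved by more than their error. The remaining 2808 stayed called, or stayed uncalled and moved by no more than that. RAD54B had the fewest counts. It also shares 59.1% of its exonic bases with FSBP on the same strand, so its low counts cannot be put down to depth alone.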
